A study of Mus musculus with 12 samples.

Results

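The genes described here carry out the unfolded protein response of the endoplasmic reticulum, the compartment in which secreted and membrane proteins fold. A list of 36 genes was followed by Ensembl ID in bulk RNA sequencing of mouse interscapular brown adipose tissue, and a member counted as measured where at least 10 reads fell on it in 3 or more libraries. Of the 36, 35 met that rule and entered the tests, out of 15282 genes that met it among 53379 genes in the files. Derl3, which encodes a derlin of the degradation pathway, did not meet it, with 1 to 11 reads per library. The rule used the size of the counts only, not a difference between groups.

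There were 12 libraries in 4 groups of 3: Cdk7 bKO mice after 6 h of cold (KO cold), wild-type mice after 6 h of cold (WT cold), Cdk7 bKO mice at room temperature (KO RT) and wild-type mice at room temperature (WT RT). The deletion was specific to brown adipose tissue and removed Cdk7, the kinase of the CDK-activating complex that phosphorylates RNA polymerase II; the wild-type mice were control littermates. All mice were C57BL/6, 12 weeks old, had food during the cold, and were killed 9 h into the zeitgeber cycle. Each library held RNA of 2 mice pooled in equal amounts, so the replicate is a pool. The transgene that drives the deletion, the sex and the cold temperature are not given in the sources used here.

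Membrane proteins sense unfolded protein in this compartment. ERN1 (IRE1α) splices Xbp1 mRNA so that it encodes an active transcription factor, ATF6 is cut by the proteases MBTPS1 and MBTPS2 to free its own transcription factor, and EIF2AK3 (PERK) phosphorylates eIF2α, which slows translation and favours ATF4. The factors raise transcription of chaperones, disulfide isomerases and the genes that send misfolded protein back to the cytosol for degradation (ERAD). In brown fat this compartment also supports lipid synthesis and secretion, and cold exposure is known to engage parts of the response. Read counts per gene measure mRNA level; they do not separate spliced from unspliced Xbp1 and do not measure the activity of a sensor.

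The promoters of the chaperone genes are known for the ER stress response element (ERSE), a CCAAT box and a CCACG box held 9 bases apart, to which NF-Y and ATF6 bind. RefSeq promoter windows (GRCm38.p6, 250 bases before to 50 after the start) were found for 30 of the 36 members. An exact match to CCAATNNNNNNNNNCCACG on either strand was present in 9 of these 30 (30.0%), against 39 of all 32851 windows (0.119%). The 9 are Calr, Canx, Creld2, Derl3, Dnajc3, Hsp90b1, which has 2, Hspa5, Pdia6 and Syvn1. The related ERSE-II (ATTGG, any base, then CCACG) was present in Herpud1 and Dnajb11, and in 12 of all windows (0.0365%); the Dnajb11 match lay after the start. The element TGACGTGG, bound by XBP1 and ATF6, was in none of the 30 windows and in 222 of all windows (0.676%). A match describes letters in the window, and its absence says only that these letters are not there. The stretches below show the matches in 7 members whose levels are followed through the results, read 5′ to 3′ on the strand that carries the match, with the element in capitals.
Hspa5, chr2:34772005-34772063, strand +: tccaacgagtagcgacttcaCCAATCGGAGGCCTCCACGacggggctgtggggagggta
Calr, chr8:84847055-84847113, strand +: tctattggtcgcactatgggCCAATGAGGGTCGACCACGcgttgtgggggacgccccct
Canx, chr11:50325780-50325838, strand -: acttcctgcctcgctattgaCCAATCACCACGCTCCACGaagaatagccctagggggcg
Syvn1, chr19:6046512-6046570, strand +: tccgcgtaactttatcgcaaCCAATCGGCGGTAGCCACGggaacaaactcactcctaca
Pdia6, chr12:17266471-17266529, strand +: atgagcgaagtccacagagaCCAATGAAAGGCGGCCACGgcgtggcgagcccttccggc
Dnajc3, chr14:118937807-118937865, strand +: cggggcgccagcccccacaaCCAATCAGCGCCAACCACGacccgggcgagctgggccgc
Herpud1, chr8:94386357-94386407, strand +: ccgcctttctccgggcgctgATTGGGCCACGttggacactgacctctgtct
The Hspa5, Canx, Syvn1, Pdia6 and Dnajc3 elements read in the direction of the gene and the Calr element against it. The Hspa5 element lay 47 to 65 bases before the start, the Syvn1 element 26 to 44 bases, and the Calr element 144 to 162 bases. The spacers between the boxes differ from gene to gene, while both boxes are identical by construction of the search.

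Levels between genes are compared as CPM (reads of a gene as a part of the library's gene counts, scaled with edgeR's TMM factors) per kilobase of annotated exon. On that scale calreticulin (Calr) had the highest mean over the 12 libraries at 90.9 CPM per kb. It was followed by Hspa5 (BiP, the main Hsp70 chaperone of the compartment) at 71.1, Canx (calnexin) at 51.7, Hsp90b1 (GRP94) at 47.8 and Pdia3 (ERp57) at 44.6 CPM per kb. The ranges of these 5 over the libraries overlapped between neighbours. The sensors were low, with Eif2ak3 at 2.29 and Ern1 at 1.97 CPM per kb. Sdf2l1, a cochaperone partner of DNAJB11, was at 1.37 CPM per kb, and Derl3 at 0.0781 CPM per kb. Xbp1, at 12.0 CPM per kb, stood above the other sensors and activators.

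**Figure D1:**
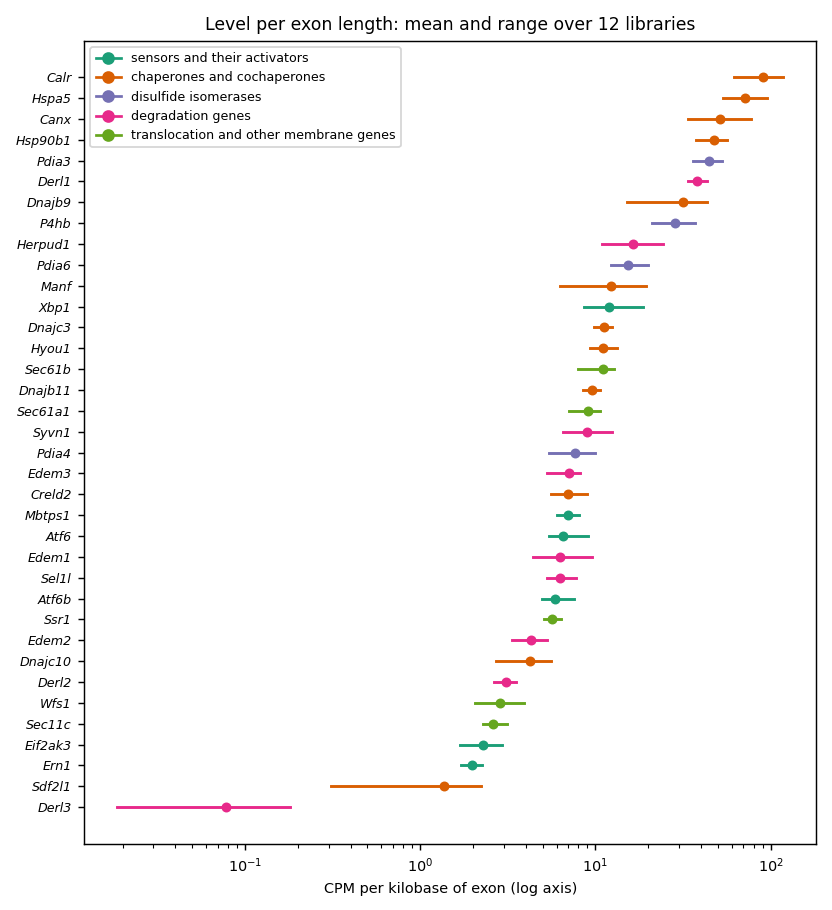
Mean level (point) and range over the 12 libraries (line) of each of the 36 genes in CPM per kilobase of exon on a log axis, coloured by role. Calr, at 90.9 CPM per kb, and Hspa5, at 71.1, stand at the top, and Sdf2l1, at 1.37, and Derl3, at 0.0781, at the bottom.

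The deleted gene separated the genotypes. Cdk7 was at 5.38, 4.85 and 5.39 CPM in KO cold libraries and 17.9, 16.1 and 15.7 CPM in WT cold libraries, and at 4.35, 5.15 and 5.77 CPM in KO libraries and 16.4, 15.1 and 16.1 CPM in WT libraries at room temperature. Gene counts ran from 27609717 to 36792555 per library. Ucp1, the uncoupling protein that defines brown adipocytes, was at 3721, 4282 and 4205 CPM in KO cold libraries, 17535, 15929 and 14780.1 CPM in WT cold libraries, 4393, 3904 and 3606 CPM in KO RT libraries and 8497, 6624 and 6784 CPM in WT RT libraries. Markers of several cell types differed between genotypes. As a yardstick, 25.9% of the 15208 genes tested passed as higher in KO in the cold and 27.8% as lower. The shares at room temperature were 19.3% and 21%. The marker counts that follow were not tested against these shares, and lists of 7 or 8 genes are small. All 12 macrophage markers tested were higher in KO at both temperatures, with a summed level of 306 to 422 CPM in KO cold, 110.5 to 112 CPM in WT cold, 264 to 369.6 CPM in KO RT and 73.2 to 99.9 CPM in WT RT libraries. Plasma and B cell markers summed to 40.9 to 62.2 CPM in KO cold, 8.98 to 16.3 CPM in WT cold, 34.1 to 52.8 CPM in KO RT and 11.2 to 23.1 CPM in WT RT libraries, with 5 of 8 tested higher in KO in the cold and 2 at room temperature, and with Igkc listed at 0 throughout and Mzb1 and Tnfrsf17 at 0 in part of the libraries. The sum over 8 brown adipocyte markers was 13792 to 14807 CPM in KO cold, 27045 to 30426 CPM in WT cold, 12705 to 15469 CPM in KO RT and 18445 to 20970 CPM in WT RT libraries. Ucp1 is among the 8, so these sums repeat in large part the Ucp1 values given above. KO cold libraries were lower than WT cold libraries for 5 of these 8, and at room temperature KO was lower for 6 and higher for 1. Endothelial markers summed to 812 to 944 CPM in KO cold, 713 to 742 CPM in WT cold, 810.1 to 821 CPM in KO RT and 583 to 708 CPM in WT RT libraries, with 6 of 7 higher in KO in the cold and 5 at room temperature. Fibroblast and preadipocyte markers summed to 487 to 669.8 CPM in KO cold, 410.1 to 564 CPM in WT cold, 469.7 to 544 CPM in KO RT and 336 to 404 CPM in WT RT libraries, with 4 of 7 higher in KO at each temperature. Skeletal muscle markers summed to 43.2 to 307 CPM in KO cold and 73.0 to 172 CPM in WT cold libraries, and to 39.7 to 1401 CPM in KO RT and 173 to 1082 CPM in WT RT libraries, with the highest values in KO RT 6 and WT RT 2, called muscle-rich below. The part of these cells in the results below was not tested, and in bulk tissue fewer cells of a type and less RNA per cell cannot be told apart.

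Few members of the list passed the test for cold in KO mice, and in WT mice members passed it in both directions. By the quasi-likelihood test of edgeR, with p-values adjusted over 15208 genes by Benjamini-Hochberg and a threshold of 0.05, 1 of the 35 members rose and 2 fell in the cold in KO, where 7.3% of all genes rose and 7.56% fell. In WT mice 11 members rose and 10 fell in the cold, where 23% of all genes rose and 23.2% fell. The members called in the cold were thus 8.57% of the list in KO, beside 14.9% of all genes, and 60.0% in WT, beside 46.3% of all genes. An unadjusted p under 0.05 was reached by 10 of 35 members in KO and 23 in WT. Among all 15208 genes 4470 reached it in KO and 7972 in WT. The median log2 change of the members was 0.04 in KO and 0.11 in WT, beside -0.02 and -0.03 over all genes tested. All changes that follow are log2 fold changes ± SE, of KO over WT or of cold over room temperature.

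The 2 cold responses share no library and can be set side by side. They had the same sign in 28 of 35 members, and the KO response was the smaller in size in 29. The median size of the log2 change was 0.15 in KO and 0.43 in WT. These values were taken over the members only, so they do not set the list apart from other genes. Of all 15208 genes 2259 were called for cold in KO and 7034 in WT. Across the 35 members the responses correlated with r = 0.70 (Spearman 0.74), which describes these genes and not independent replicates. Hspa5, which rose, and Herpud1, which fell, were called in both genotypes.

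The difference of the responses, tested as an interaction of genotype and temperature, was called for 11 members. In 5 of them the KO response was the more positive, where 10.6% of all genes were called in that direction, and in 6 it was the more negative, where 12.9% of all genes were. For Xbp1, Dnajc10, Pdia4, Pdia6 and Edem1 the cold change did not pass the test in KO, while the level fell in WT. For Manf, Syvn1, Calr, Canx, Atf6 and Sec61a1 the change did not pass the test in KO, while the level rose in WT.

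**Figure D2:**
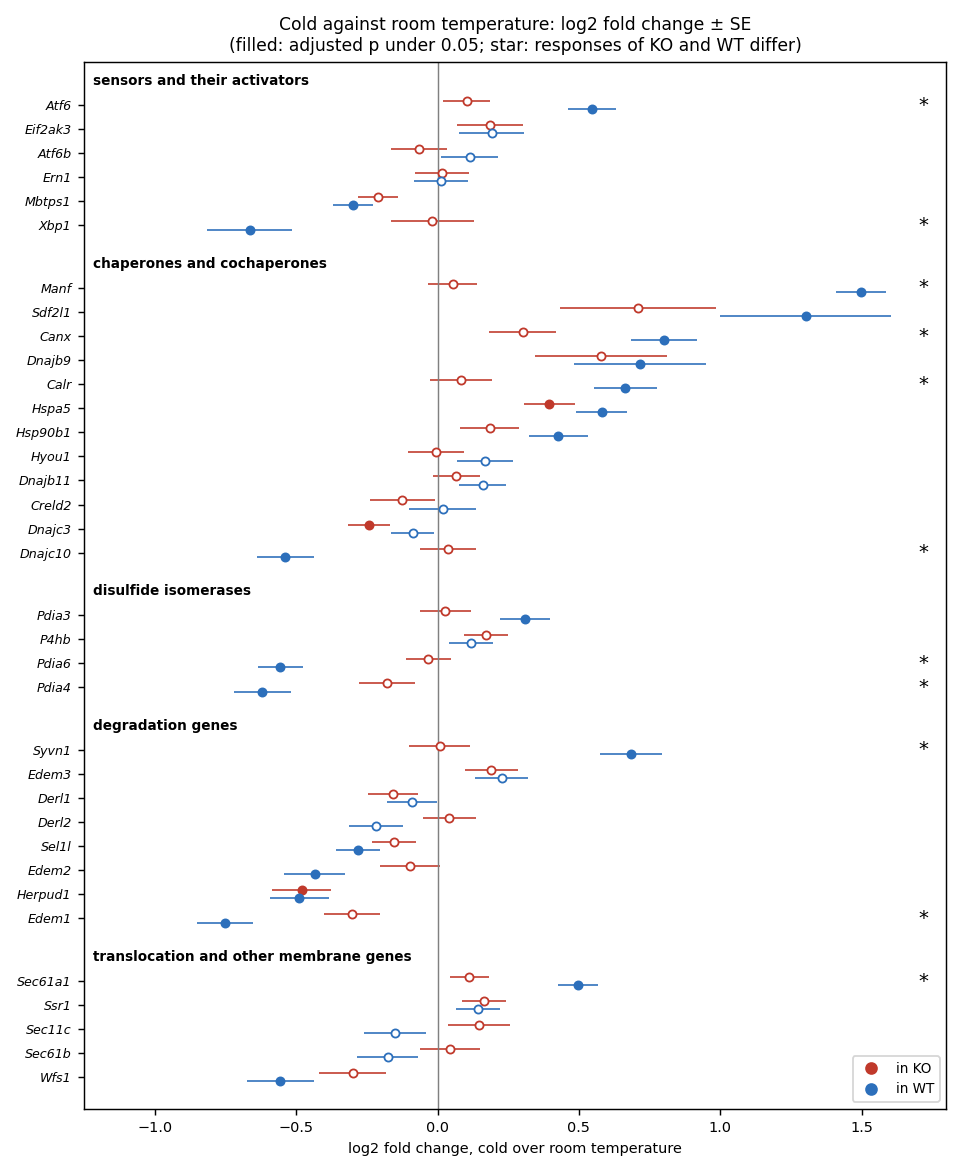
Log2 fold change of cold over room temperature (± SE) of 35 genes in KO (red, upper point of each row) and WT (blue), ordered by role and by the WT value; filled points passed the test at an adjusted p of 0.05 and a star marks genes whose responses differed. Manf, at 0.05 in KO and 1.497 in WT, shows the widest gap, and Hspa5 and Herpud1 are filled in both.

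Between genotypes the list split both ways as well. In the cold 6 members were higher in KO than in WT, where 25.9% of all genes were, and 10 were lower, where 27.8% of all genes were. At room temperature 6 were higher in KO, where 19.3% of all genes were, and 6 were lower, where 21% of all genes were. The called members were 45.7% of the list in the cold and 34.3% at room temperature, beside 53.7% and 40.4% of all genes. Neither share stands above the background.

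The comparisons of genotypes at the 2 temperatures share no library. Their members' log2 changes correlated only weakly (r = 0.21 over 35 members, 20 with the same sign). Eif2ak3, Herpud1 and Sel1l were lower in KO and P4hb was higher in KO at both temperatures. Manf was higher in KO at room temperature and lower in KO in the cold, and Pdia6 was lower at room temperature and higher in the cold. Each comparison of genotypes shares libraries with the cold responses, so these are not independent of each other.

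**Figure D3:**
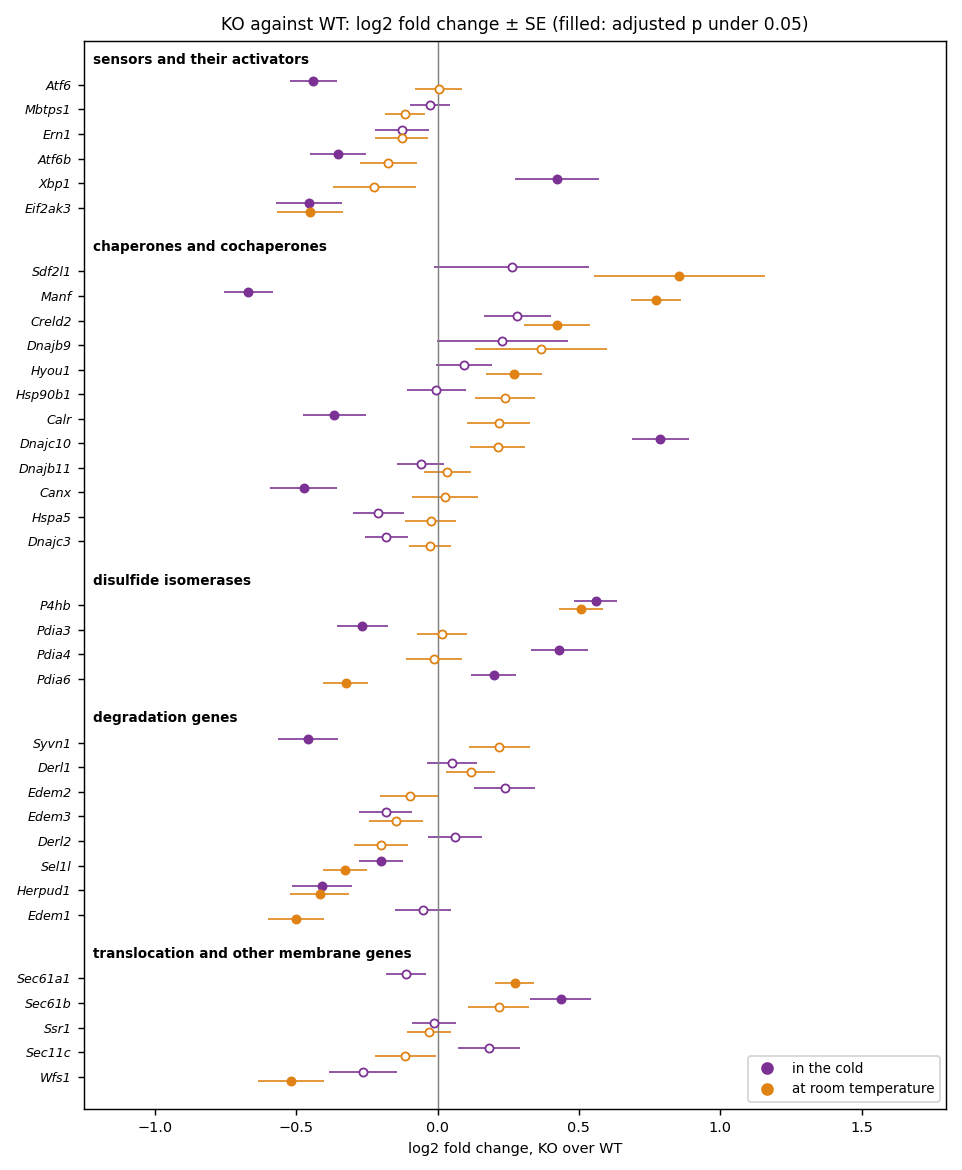
Log2 fold change of KO over WT (± SE) of 35 genes in the cold (purple, upper point of each row) and at room temperature (orange), ordered by role and by the room temperature value; filled points passed the test at an adjusted p of 0.05. Manf lies at -0.67 in the cold and 0.77 at room temperature, while P4hb lies at 0.56 and 0.51 and Herpud1 at -0.41 and -0.42.

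Scaling bears on the comparisons of genotypes. With library totals in place of TMM factors, the median log2 change of all genes moved to 0.45 for KO against WT in the cold, 0.22 at room temperature and 0.24 for the difference of responses. It moved to 0.00 for cold in KO and -0.23 for cold in WT. Relative to that median every called member kept its sign in all 5 comparisons. Subtracting the median removes a shift shared by all genes, so this was close to fixed in advance and is no test of the calls. Without that reference, 5 of the 16 members called between genotypes in the cold turned positive: Atf6b, Calr, Herpud1, Pdia3 and Sel1l. Another 5 kept their sign and were no longer called: Atf6, Canx, Eif2ak3, Manf and Syvn1. The same scaling ended the calls of all 6 members lower in KO at room temperature, of Atf6, Calr, Canx and Sec61a1 for the difference of responses, of Dnajc3 for cold in KO and of Hsp90b1 and Pdia3 for cold in WT. The TMM factors ran from 0.799 to 1.18, and mitochondrial transcripts took 31.1% to 42.5% of the gene counts.

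Among 6 sensors and activators, edgeR called 0 in KO in the cold, with 1 at an unadjusted p under 0.05 and 1 by DESeq2. Of all genes 7.3% rose and 7.56% fell in that comparison by edgeR. In WT in the cold 1 rose (Atf6) and 2 fell (Xbp1 and Mbtps1), where 23% of all genes rose and 23.2% fell. Between genotypes in the cold Xbp1 was higher and Eif2ak3, Atf6 and Atf6b were lower in KO. Of all genes 25.9% were higher and 27.8% lower. At room temperature Eif2ak3 was lower, where 21% of all genes were.

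Atf6 was at 55.7, 55.95 and 60.4 CPM in KO cold libraries and 76.5, 83.5 and 73.3 CPM in WT cold libraries. Its level at room temperature was 49.9, 59.4 and 50.9 CPM in KO libraries and 53.4, 53.001 and 53.3 CPM in WT libraries. The 3 WT cold libraries stood above the other 9. The log2 change in the cold was 0.10 ± 0.08 (adjusted p = 0.45) in KO and 0.55 ± 0.08 (adjusted p = 5.0e-05) in WT, and the responses differed by -0.44 ± 0.12 (adjusted p = 0.012). That difference was not called without WT cold 2 (-0.38, adjusted p = 0.054). Between genotypes the change was -0.44 ± 0.08 (adjusted p = 0.00034) in the cold and 0.00 ± 0.08 (adjusted p = 0.97) at room temperature. Its relative Atf6b, which encodes a weaker activator, was at 13.7, 14.6 and 14.97 CPM in KO cold libraries and 20.7, 17.1 and 17.4 CPM in WT cold libraries. It was lower in KO in the cold, a log2 change of -0.35 ± 0.10 (adjusted p = 0.0073), with groups that did not overlap, but was not called without WT cold 1 (-0.26), and the value was 0.08 under library totals.

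Eif2ak3, the PERK kinase, was at 12.4, 12.1 and 12.6 CPM in KO cold libraries and 16.7, 17.7 and 16.5 CPM in WT cold libraries. The levels at room temperature were 10.9, 10.2 and 11.6 CPM in KO libraries and 11.7, 16.4 and 16.5 CPM in WT libraries. The KO libraries lay below the WT libraries at each temperature, narrowly so at room temperature, where WT RT 1 was the lowest of its group. The change between genotypes was -0.46 ± 0.12 (adjusted p = 0.0035) in the cold and -0.45 ± 0.12 (adjusted p = 0.0057) at room temperature. Cold did not pass the test in KO (0.19 ± 0.12) or in WT (0.19 ± 0.12).

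Ern1, the splicing nuclease IRE1α, was at 16.5, 15.4 and 14.6 CPM in KO cold libraries and 16.9, 18.4 and 15.4 CPM in WT cold libraries. Libraries at room temperature held it at 15.8, 14.04 and 16.1 CPM in KO libraries and 17.3, 15.8 and 16.98 CPM in WT libraries. All 4 groups overlapped, and no comparison passed the test. Its substrate Xbp1 behaved otherwise, at 39.2, 44.6 and 34.6 CPM in KO cold libraries and 30.7, 27.9 and 29.7 CPM in WT cold libraries. At room temperature Xbp1 was at 43.3, 38.9 and 37.8 CPM in KO libraries and 41.9, 60.6 and 37.4 CPM in WT libraries. The WT cold libraries were the lowest of the 12, and WT RT 2 the highest. Xbp1 changed in the cold by -0.02 ± 0.15 (adjusted p = 0.95) in KO and by -0.66 ± 0.15 (adjusted p = 0.0024) in WT. It was higher in KO in the cold by 0.42 ± 0.15 (adjusted p = 0.028), a call that held without KO cold 3 but not without any of the other 5 libraries compared (0.32 to 0.45, adjusted p 0.055 to 0.11). The difference of responses, 0.65 ± 0.21 (adjusted p = 0.039), fell to 0.41 (adjusted p = 0.059) without WT RT 2, and the call was also lost without KO RT 5, KO RT 6, each WT cold library, KO cold 1 or KO cold 2 (0.55 to 0.68). Mbtps1, the protease that cuts ATF6 first, changed in the cold by -0.21 ± 0.07 (adjusted p = 0.055) in KO and -0.30 ± 0.07 (adjusted p = 0.0025) in WT, with the cold libraries below those at room temperature in both genotypes.

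Of 12 chaperones and cochaperones, 1 rose (Hspa5) and 1 fell (Dnajc3) in KO in the cold, with a median log2 change of 0.08. Of all genes 7.3% rose and 7.56% fell. At an unadjusted p under 0.05, 4 chaperones were higher and 1 lower. In WT in the cold 7 rose (Manf, Sdf2l1, Canx, Dnajb9, Calr, Hspa5 and Hsp90b1) and 1 fell (Dnajc10), with a median of 0.50. Of all genes 23% rose and 23.2% fell there. Between genotypes in the cold 1 was higher in KO (Dnajc10) and 3 were lower (Manf, Canx and Calr). Of all genes 25.9% were higher and 27.8% lower. At room temperature 4 were higher in KO (Sdf2l1, Manf, Creld2 and Hyou1), where 19.3% of all genes were. Within KO RT, library 5 had the highest level in 11 of the 12 chaperones and library 4 the lowest in 9, so the room temperature means carry that spread.

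Hspa5 was at 322, 346 and 311 CPM in KO cold libraries and 403, 352 and 377 CPM in WT cold libraries. At room temperature it was at 225, 274 and 245 CPM in KO libraries and 239, 258 and 259 CPM in WT libraries. Cold libraries stood above room temperature libraries in both genotypes, and the genotypes overlapped at room temperature. The log2 change in the cold was 0.40 ± 0.09 (adjusted p = 0.0078) in KO and 0.58 ± 0.09 (adjusted p = 6.5e-05) in WT, and the difference of the responses was -0.19 ± 0.13 (adjusted p = 0.32). Between genotypes in the cold the KO libraries lay below the WT libraries with a change of -0.21 ± 0.09 (adjusted p = 0.061), which did not pass the test; under library totals the value was 0.23 (adjusted p = 0.13).

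Manf, a secreted stress-induced factor that binds BiP, had the largest difference of responses among the members. It was at 41.1, 42.9 and 42.6 CPM in KO cold libraries and 68.6, 64.4 and 68.3 CPM in WT cold libraries. Its level at room temperature was 35.3, 44.1 and 42.5 CPM in KO libraries and 24.1, 22.2 and 25.1 CPM in WT libraries. The KO libraries stayed between the 2 WT groups, which did not overlap: all 6 KO libraries were above WT RT and below WT cold. Manf changed in the cold by 0.05 ± 0.09 (adjusted p = 0.73) in KO and by 1.497 ± 0.09 (adjusted p = 3.4e-09) in WT, and the responses differed by -1.44 ± 0.12 (adjusted p = 3.7e-06). It was lower in KO in the cold, a log2 change of -0.67 ± 0.09 (adjusted p = 9.6e-06) and higher in KO at room temperature by 0.77 ± 0.09 (adjusted p = 5.5e-06). The difference of responses was called in every alternative tried; the lower level in KO in the cold was not called under library totals (-0.23, adjusted p = 0.079). Annotated Manf exons overlap Rbm15b on the same strand, which was listed at 0 reads in all libraries, and Dcaf1 on the other strand, at 859 to 1197 reads. Dcaf1 changed in the cold by -0.33 (adjusted p = 0.046) in KO and by 0.19 (adjusted p = 0.15) in WT.

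**Figure D4:**
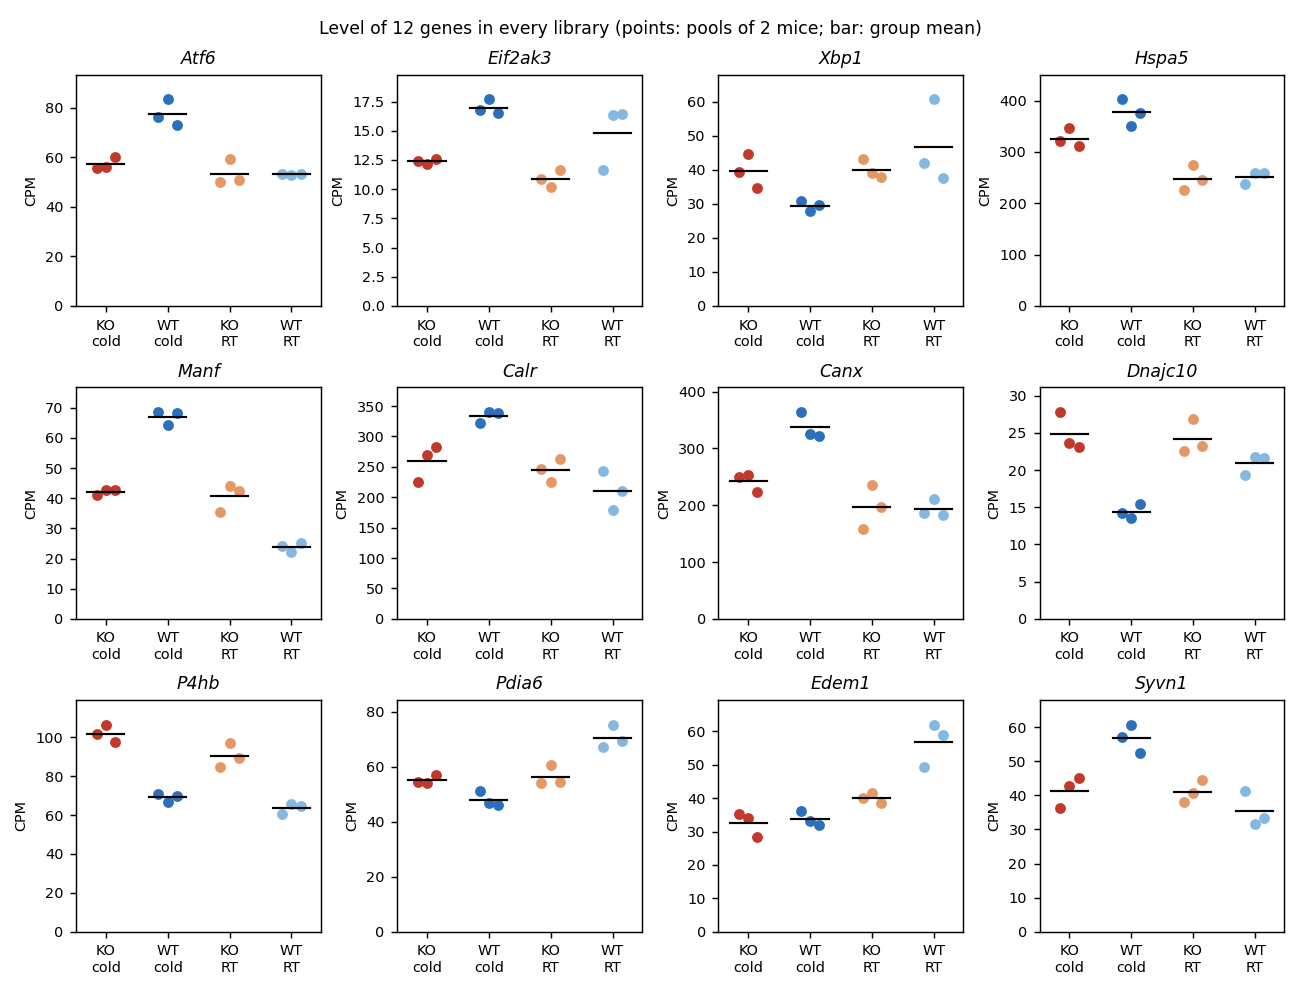
Level in CPM of 12 genes in each library (points, pools of 2 mice) with the group mean (bar), for KO cold, WT cold, KO RT and WT RT; every axis starts at 0. Manf in all 6 KO libraries lies between the WT cold and WT RT libraries, and P4hb is higher in KO than in WT at each temperature.

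The lectin chaperones Calr and Canx hold glycoproteins while they fold. Calr was at 225, 269.7 and 282 CPM in KO cold libraries and 323, 339.9 and 338 CPM in WT cold libraries. The levels at room temperature were 246, 225 and 263 CPM in KO libraries and 243, 179 and 209.8 CPM in WT libraries. The WT cold libraries were above the other 9. Calr changed in the cold by 0.08 ± 0.11 (adjusted p = 0.67) in KO and 0.66 ± 0.11 (adjusted p = 0.00012) in WT, a difference of -0.58 ± 0.16 (adjusted p = 0.013) that was not called without the muscle-rich libraries KO RT 6 and WT RT 2 (-0.42, adjusted p = 0.10). It was lower in KO in the cold, a log2 change of -0.36 ± 0.11 (adjusted p = 0.011), a call lost without KO cold 1 (-0.27, adjusted p = 0.065), and the value was 0.07 under library totals.

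Canx was at 250.3, 254 and 224 CPM in KO cold libraries and 364, 326 and 321 CPM in WT cold libraries. Libraries at room temperature held it at 159, 236 and 197 CPM in KO libraries and 186, 211 and 184 CPM in WT libraries. Here too the WT cold libraries were above the other 9. Canx changed in the cold by 0.30 ± 0.12 (adjusted p = 0.096) in KO and 0.80 ± 0.12 (adjusted p = 3.6e-05) in WT, and was lower in KO in the cold, a log2 change of -0.47 ± 0.12 (adjusted p = 0.0029). The difference of responses, -0.50 ± 0.17 (adjusted p = 0.038), held without WT RT 2 or KO RT 4 and was lost without any of the other 10 libraries (-0.53 to -0.35, adjusted p 0.051 to 0.10).

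Hsp90b1 was at 199, 227 and 211 CPM in KO cold libraries and 223, 211 and 205 CPM in WT cold libraries. At room temperature it was at 152, 216 and 192 CPM in KO libraries and 154, 159 and 161 CPM in WT libraries. WT libraries separated by temperature, while KO RT 5 reached the level of the cold KO libraries. The change in the cold was 0.18 ± 0.10 (adjusted p = 0.26) in KO and 0.43 ± 0.11 (adjusted p = 0.0031) in WT. Hyou1, the large Hsp70 relative that exchanges nucleotide on BiP, was at 71.6, 95.9 and 89.5 CPM in KO libraries and 67.2, 72.4 and 73.5 CPM in WT libraries at room temperature. Its room temperature change of 0.27 ± 0.10 (adjusted p = 0.039) came from overlapping groups and was lost without KO RT 5 (0.18, adjusted p = 0.18), and also without KO RT 6 or any WT RT library (0.23 to 0.29).

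Sdf2l1 was at 2.12, 2.47 and 1.97 CPM in KO cold libraries and 2.32, 1.77 and 1.38 CPM in WT cold libraries. Its level at room temperature was 1.34, 1.37 and 1.30 CPM in KO libraries and 0.345, 1.08 and 0.735 CPM in WT libraries. WT RT libraries were the lowest, but 9 to 91 reads per library lie behind these values. Sdf2l1 changed in the cold by 0.71 ± 0.28 (adjusted p = 0.094) in KO and 1.30 ± 0.30 (adjusted p = 0.002) in WT. It was higher in KO at room temperature by 0.85 ± 0.30 (adjusted p = 0.032), a call lost without WT RT 1 (0.56, adjusted p = 0.12), without WT RT 3 or without any KO RT library (0.84 to 0.87). Creld2, a disulfide isomerase-like secreted protein induced by stress, was at 9.52, 12.3 and 11.8 CPM in KO libraries and 7.63, 8.50 and 8.82 CPM in WT libraries at room temperature, higher in KO by 0.42 ± 0.12 (adjusted p = 0.0086) without overlap. That call was lost without the 2 muscle-rich libraries (0.40, adjusted p = 0.078).

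The J-domain partners of BiP did not move together. Dnajb9 (ERdj4), which loads BiP onto the sensor IRE1α, was at 106, 101 and 111 CPM in KO cold libraries and 88.04, 97.1 and 86.4 CPM in WT cold libraries. The levels at room temperature were 53.8, 88.6 and 70.7 CPM in KO libraries and 75.7, 51.3 and 38.6 CPM in WT libraries, a wide spread within both groups. Its change in the cold was 0.58 ± 0.23 (adjusted p = 0.13) in KO and 0.72 ± 0.23 (adjusted p = 0.03) in WT, the WT call being lost without WT RT 2, WT RT 3 or any WT cold library (0.51 to 0.75, adjusted p 0.057 to 0.097). Dnajb11 (ERdj3) passed no test, with changes in the cold of 0.07 ± 0.08 in KO and 0.16 ± 0.08 in WT.

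Dnajc10 (ERdj5), a reductase that opens disulfides ahead of degradation, fell in WT in the cold, where 7 other chaperones rose. It was at 27.8, 23.7 and 23.05 CPM in KO cold libraries and 14.2, 13.6 and 15.4 CPM in WT cold libraries. Libraries at room temperature held it at 22.6, 26.9 and 23.2 CPM in KO libraries and 19.3, 21.8 and 21.6 CPM in WT libraries. The WT cold libraries were the lowest of the 12. Dnajc10 changed in the cold by 0.04 ± 0.10 (adjusted p = 0.84) in KO and -0.54 ± 0.10 (adjusted p = 0.00036) in WT, and the responses differed by 0.58 ± 0.14 (adjusted p = 0.0076), a call lost without the 2 muscle-rich libraries (0.51, adjusted p = 0.055). It was higher in KO in the cold by 0.79 ± 0.10 (adjusted p = 8.5e-06). Dnajc3 (p58IPK), a cochaperone that also restrains PERK, changed in the cold by -0.24 ± 0.08 (adjusted p = 0.038) in KO. That call was lost without KO RT 5, KO RT 6 or any KO cold library (-0.25 to -0.20), and the WT change was -0.09 ± 0.08.

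The 4 disulfide isomerases, which form and reshuffle disulfide bonds, were called in both directions. In KO in the cold edgeR called 0 of the 4, with 1 at an unadjusted p under 0.05 and 0 by DESeq2. Of all genes 7.3% rose and 7.56% fell by edgeR. In WT in the cold Pdia3 rose and Pdia4 and Pdia6 fell, where 23% of all genes rose and 23.2% fell. Between genotypes in the cold 3 were higher in KO (P4hb, Pdia4 and Pdia6) and Pdia3 was lower. Of all genes 25.9% were higher and 27.8% lower. At room temperature P4hb was higher and Pdia6 lower, where 19.3% of all genes were higher and 21% lower.

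P4hb, the classical isomerase PDI and a subunit of collagen prolyl hydroxylase, was at 102, 106 and 97.9 CPM in KO cold libraries and 70.8, 66.9 and 69.9 CPM in WT cold libraries. At room temperature it was at 84.95, 97.3 and 89.3 CPM in KO libraries and 60.4, 65.7 and 64.9 CPM in WT libraries. Every KO library was above every WT library. The change between genotypes was 0.56 ± 0.08 (adjusted p = 1.9e-05) in the cold and 0.51 ± 0.08 (adjusted p = 8.8e-05) at room temperature, and both calls held in every alternative tried. Cold did not pass the test in KO (0.17 ± 0.08) or in WT (0.12 ± 0.08). Fibroblast markers, whose cells secrete collagen, summed to 487 to 669.8 CPM in KO cold, 410.1 to 564 CPM in WT cold, 469.7 to 544 CPM in KO RT and 336 to 404 CPM in WT RT libraries; their part in the P4hb difference was not tested.

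Pdia6 (P5), which attenuates IRE1α, was at 54.5, 54.1 and 56.9 CPM in KO cold libraries and 51.3, 46.7 and 46.1 CPM in WT cold libraries. Its level at room temperature was 54.2, 60.7 and 54.3 CPM in KO libraries and 67.2, 75.2 and 69.5 CPM in WT libraries. The WT RT libraries were the highest and the WT cold libraries the lowest, with all KO libraries between them. Pdia6 changed in the cold by -0.03 ± 0.08 (adjusted p = 0.83) in KO and -0.56 ± 0.08 (adjusted p = 2.6e-05) in WT, a difference of 0.52 ± 0.11 (adjusted p = 0.0032) called in every alternative. It was lower in KO at room temperature, a log2 change of -0.33 ± 0.08 (adjusted p = 0.0037), a call lost without the 2 muscle-rich libraries (-0.25, adjusted p = 0.080). In the cold it was higher in KO by 0.20 ± 0.08 (adjusted p = 0.044), lost without WT cold 2, WT cold 3 or any KO cold library (0.17 to 0.21, adjusted p 0.074 to 0.12).

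Pdia4 (ERp72) was at 18.04, 18.5 and 18.6 CPM in KO cold libraries and 13.1, 14.4 and 13.4 CPM in WT cold libraries. The levels at room temperature were 19.9, 21.2 and 21.2 CPM in KO libraries and 17.7, 21.3 and 23.8 CPM in WT libraries. The WT cold libraries were the lowest without overlap. The change in the cold was -0.18 ± 0.10 (adjusted p = 0.25) in KO and -0.62 ± 0.10 (adjusted p = 9.5e-05) in WT, and the gene was higher in KO in the cold by 0.43 ± 0.10 (adjusted p = 0.0019). Its responses differed by 0.44 ± 0.14 (adjusted p = 0.031), which was lost without WT RT 2, WT RT 3, KO RT 4, KO RT 6, WT cold 1, WT cold 3 or any KO cold library (0.36 to 0.46, adjusted p 0.050 to 0.084). Pdia3, the isomerase that works with calreticulin and calnexin, was at 128, 141 and 135 CPM in KO cold libraries and 166, 163 and 158 CPM in WT cold libraries. It changed in the cold by 0.03 ± 0.09 (adjusted p = 0.88) in KO and 0.31 ± 0.09 (adjusted p = 0.0095) in WT. It was lower in KO in the cold, a log2 change of -0.27 ± 0.09 (adjusted p = 0.019), a call lost without WT cold 1, WT cold 2 or KO cold 1 (-0.25 to -0.23), and the value was 0.17 under library totals.

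Among the degradation genes 8 were tested, and 1 fell in KO in the cold (Herpud1), where 7.56% of all genes fell. In WT in the cold 4 fell (Edem1, Herpud1, Edem2 and Sel1l) and 1 rose (Syvn1), where 23.2% of all genes fell and 23% rose. Between genotypes in the cold 3 were lower in KO (Syvn1, Herpud1 and Sel1l), where 27.8% of all genes were, and at room temperature 3 were lower in KO (Edem1, Herpud1 and Sel1l), where 21% of all genes were. Under library totals none of the 8 was lower in KO at either temperature, and 4 were higher in KO in the cold and 1 at room temperature. With that scaling 7876 of all 15208 genes were higher and 1074 lower in the cold. At room temperature 4737 were higher and 1267 lower.

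Herpud1, a membrane protein that organises the ubiquitin ligase complex, was at 25.6, 26.5 and 30.2 CPM in KO cold libraries and 37.2, 32.9 and 38.9 CPM in WT cold libraries. Libraries at room temperature held it at 41.2, 34.2 and 39.3 CPM in KO libraries and 44.3, 52.3 and 56.4 CPM in WT libraries. The KO cold libraries were the lowest and the WT RT libraries the highest, and no pair of groups differing in 1 factor overlapped. Herpud1 fell in the cold, a log2 change of -0.48 ± 0.10 (adjusted p = 0.0057) in KO and -0.49 ± 0.10 (adjusted p = 0.0011) in WT, and the responses differed by 0.01 ± 0.15. It was lower in KO, a log2 change of -0.41 ± 0.11 (adjusted p = 0.0038) in the cold and -0.42 ± 0.10 (adjusted p = 0.0045) at room temperature. The cold value between genotypes was 0.02 under library totals.

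Syvn1 (HRD1) is the ubiquitin ligase and Sel1l its partner, and the pair moved in opposite directions in WT in the cold. Syvn1 was at 36.2, 42.6 and 45.2 CPM in KO cold libraries and 57.2, 60.6 and 52.5 CPM in WT cold libraries. At room temperature it was at 38.2, 40.6 and 44.6 CPM in KO libraries and 41.2, 31.6 and 33.3 CPM in WT libraries. The WT cold libraries were above all others. Syvn1 changed in the cold by 0.01 ± 0.11 (adjusted p = 0.97) in KO and 0.68 ± 0.11 (adjusted p = 7.1e-05) in WT, a difference of -0.68 ± 0.15 (adjusted p = 0.0046) called in every alternative, and was lower in KO in the cold, a log2 change of -0.46 ± 0.11 (adjusted p = 0.0019). Mrpl49, a mitochondrial ribosomal gene that overlaps it on the other strand, changed in the cold by -0.27 in KO and -0.50 in WT.

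Sel1l was at 45.9, 46.8 and 45.4 CPM in KO cold libraries and 54.2, 50.3 and 54.1 CPM in WT cold libraries. Its level at room temperature was 46.8, 55.2 and 51.8 CPM in KO libraries and 63.2, 66.6 and 63.1 CPM in WT libraries. WT RT libraries were the highest. The change in the cold was -0.15 ± 0.08 (adjusted p = 0.19) in KO and -0.28 ± 0.08 (adjusted p = 0.0064) in WT. Sel1l was lower in KO at room temperature, a log2 change of -0.33 ± 0.08 (adjusted p = 0.003). In the cold it was lower in KO, a log2 change of -0.20 ± 0.08 (adjusted p = 0.038), which was lost without any 1 of the 6 libraries (-0.23 to -0.18, adjusted p 0.051 to 0.12) and was 0.24 under library totals.

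Edem1, one of the lectins that pick misfolded glycoproteins for degradation, was at 35.3, 33.99 and 28.3 CPM in KO cold libraries and 36.1, 33.2 and 31.9 CPM in WT cold libraries. The levels at room temperature were 40.2, 41.5 and 38.7 CPM in KO libraries and 49.2, 61.9 and 59.1 CPM in WT libraries. The WT RT libraries were the highest, and the cold groups of both genotypes overlapped. Edem1 changed in the cold by -0.30 ± 0.10 (adjusted p = 0.0501) in KO and -0.75 ± 0.10 (adjusted p = 1.3e-05) in WT, and was lower in KO at room temperature, a log2 change of -0.50 ± 0.10 (adjusted p = 0.00078). Its responses differed by 0.45 ± 0.14 (adjusted p = 0.028), a call lost without WT RT 2, WT RT 3, KO RT 6, WT cold 2, WT cold 3, KO cold 1 or KO cold 2 (0.38 to 0.45, adjusted p 0.058 to 0.082). Edem2 changed in the cold by -0.10 ± 0.11 (adjusted p = 0.59) in KO and -0.43 ± 0.11 (adjusted p = 0.0032) in WT, and Edem3 by 0.19 ± 0.09 (adjusted p = 0.19) in KO and 0.23 ± 0.09 (adjusted p = 0.059) in WT. The derlins, channel proteins of the pathway, passed no test: Derl1 changed in the cold by -0.16 ± 0.09 in KO and -0.09 ± 0.09 in WT, and Derl2 by 0.04 ± 0.09 in KO and -0.22 ± 0.10 in WT.

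Of 5 genes of translocation and the membrane, edgeR called 0 in KO in the cold, with 1 at an unadjusted p under 0.05 and 0 by DESeq2. Of all genes 7.3% rose and 7.56% fell by edgeR. In WT in the cold Sec61a1 rose and Wfs1 fell, where 23% of all genes rose and 23.2% fell. Sec61a1, the pore of the translocon, was at 63.6, 64.3 and 66.3 CPM in KO cold libraries and 71.96, 68.8 and 68.98 CPM in WT cold libraries. Libraries at room temperature held it at 59.3, 60.1 and 60.3 CPM in KO libraries and 51.4, 49.6 and 47.7 CPM in WT libraries. WT cold was the highest group and WT RT the lowest, with the KO libraries between. It changed in the cold by 0.11 ± 0.07 (adjusted p = 0.3) in KO and 0.50 ± 0.07 (adjusted p = 2.1e-05) in WT. The responses differed by -0.38 ± 0.10 (adjusted p = 0.0094), a call lost without the 2 muscle-rich libraries (-0.38, adjusted p = 0.054), as was the higher level in KO at room temperature of 0.27 ± 0.07 (adjusted p = 0.0049).

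Sec61b, the small translocon subunit, was at 16.3, 15.7 and 15.6 CPM in KO cold libraries and 13.5, 11.5 and 10.1 CPM in WT cold libraries. It was higher in KO in the cold by 0.44 ± 0.11 (adjusted p = 0.0028), without overlap, and at room temperature the change was 0.22 ± 0.11 (adjusted p = 0.12). Wfs1 (wolframin), a calcium-handling membrane protein, was at 7.83, 8.46 and 8.66 CPM in KO cold libraries and 10.002, 9.80 and 10.1 CPM in WT cold libraries. At room temperature it was at 12.01, 8.32 and 10.3 CPM in KO libraries and 14.3, 14.9 and 14.8 CPM in WT libraries. It changed in the cold by -0.30 ± 0.12 (adjusted p = 0.098) in KO and -0.56 ± 0.12 (adjusted p = 0.00098) in WT, and was lower in KO at room temperature, a log2 change of -0.52 ± 0.12 (adjusted p = 0.0021). Sec11c, of the signal peptidase, and Ssr1, of the translocon-associated complex, passed no test, with changes in the cold of 0.15 ± 0.11 and 0.16 ± 0.08 in KO and -0.15 ± 0.11 and 0.14 ± 0.08 in WT.

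Summed over the members, the level was 2375 to 2515 CPM in KO cold libraries, 2648 to 2771 CPM in WT cold libraries, 2096 to 2396 CPM in KO RT libraries and 2157 to 2195 CPM in WT RT libraries. WT cold stood above KO cold, and KO RT overlapped both KO cold and WT RT. These sums are TMM-scaled, and the order of WT cold and KO cold depends on that scaling. The factors were 1.07 to 1.18 in KO cold and 0.799 to 0.870 in WT cold libraries. Under library totals 20 members were higher in KO in the cold and 0 lower. Of all 15208 genes 7876 were higher and 1074 lower in that comparison. Spread within groups was modest, with a median coefficient of variation of 5.07% in KO cold, 5.45% in WT cold, 7.84% in KO RT and 6.17% in WT RT.

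The members were also set out by promoter, 8 tested with an exact ERSE and 21 tested with a RefSeq window and none. In KO in the cold 1 of the 8 rose (Hspa5) and 1 fell (Dnajc3), with a median log2 change of 0.05. Of the 21, 1 fell in KO (Herpud1), with a median of 0.03, where 7.3% of all genes rose and 7.56% fell. In WT in the cold 5 of the 8 rose (Hspa5, Calr, Canx, Syvn1 and Hsp90b1) and 1 fell (Pdia6), with a median of 0.50. Of the 21, 3 rose and 9 fell in WT, with a median of -0.18, where 23% of all genes rose and 23.2% fell. For the difference of responses, 1 of the 8 was called more positive in KO and 3 more negative, and of the 21 there were 4 more positive and 0 more negative, where 10.6% of all genes were more positive and 12.9% more negative. Atf6, Hyou1, Manf, Derl1, Sec61a1 and Sec11c had no window and are in neither set. Manf, Atf6 and Sec61a1 rose in WT in the cold and were called more negative in KO, so the counts depend on the missing windows. Hyou1, Derl1 and Sec11c were called in neither comparison. Herpud1 and Dnajb11, with an ERSE-II match, are among the 21. These counts describe the list, and the difference between the 2 sets was not tested.

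**Figure D5:**
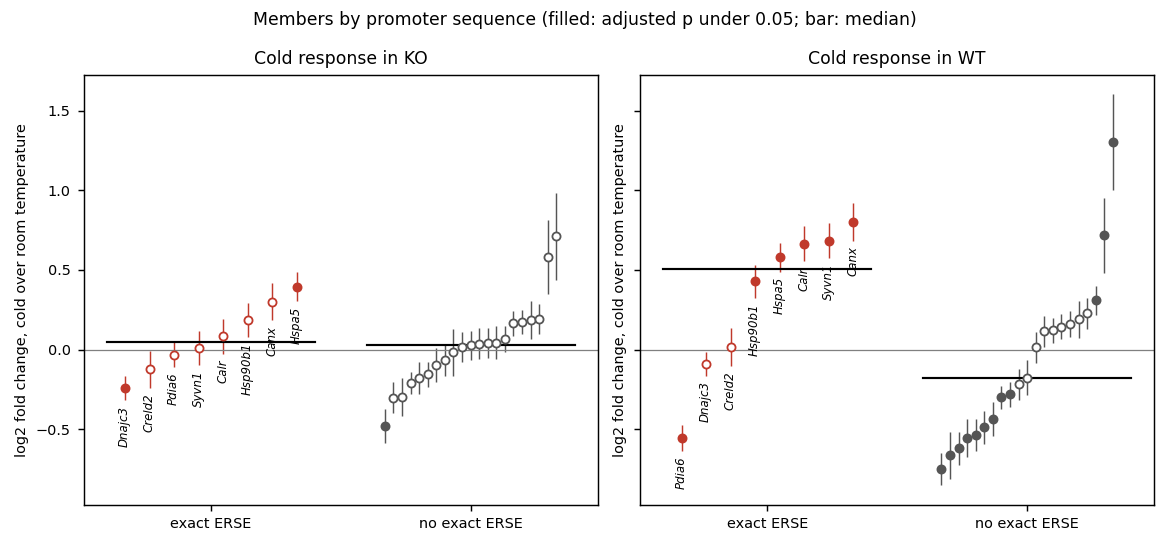
Log2 fold change of cold over room temperature (± SE) of the 8 tested members with an exact ERSE (red, named) and the 21 with a RefSeq promoter and no exact ERSE (grey), in KO (left) and WT (right); filled points passed the test and bars are medians. In KO the medians are 0.05 with and 0.03 without the element, and in WT 0.50 and -0.18. Members without a RefSeq window, Manf, Atf6 and Sec61a1 among them, are not shown.

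Another 78 genes of the pathway were tested outside the list. In KO in the cold 8 rose and 3 fell, where 7.3% of all genes rose and 7.56% fell. Cold in WT gave 34 rising and 9 falling genes, where 23% of all genes rose and 23.2% fell. Between genotypes 6 were higher and 37 lower in KO in the cold, where 25.9% of all genes were higher and 27.8% lower. At room temperature 12 were higher and 17 lower in KO, where 19.3% and 21% of all genes were. The difference of responses was called more positive in KO for 7 and more negative for 19, where 10.6% and 12.9% of all genes were. Under library totals the counts between genotypes turned round, with 30 genes higher in KO and 4 lower in the cold, and at room temperature 22 higher and 5 lower. The counts of all 15208 genes moved too, to 7876 higher and 1074 lower in the cold. At room temperature they were 4737 higher and 1267 lower. The same scaling gave 17 of the 78 rising and 16 falling in WT in the cold, where 1826 of all genes rose and 4812 fell. For the difference 9 were more positive and 5 more negative, where 2388 and 711 of all genes were.

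Of 16 further genes of the degradation machinery, 2 rose in KO in the cold, where 7.3% of all genes did, and 9 rose in WT, where 23% did. The responses differed for 9 of the 16, each more negative in KO, where 12.9% of all genes were. Under library totals 3 were called, each more negative, where 711 of all 15208 genes were. Ubxn4, an adaptor of the p97 ATPase, changed in the cold by 0.36 ± 0.09 (adjusted p = 0.012) in KO and 1.10 ± 0.09 (adjusted p = 9.3e-08) in WT, a difference of -0.74 ± 0.13 (adjusted p = 0.00071). Ube2g2, a ubiquitin-conjugating enzyme, changed by 0.31 ± 0.08 (adjusted p = 0.012) in KO and 0.91 ± 0.08 (adjusted p = 1.6e-07) in WT, a difference of -0.60 ± 0.11 (adjusted p = 0.0012) that was not called under library totals (-0.38, adjusted p = 0.054). Nploc4, another p97 cofactor, changed by 0.14 ± 0.09 (adjusted p = 0.31) in KO and 1.02 ± 0.09 (adjusted p = 2.3e-07) in WT, and the difference of responses was -0.87 ± 0.13 (adjusted p = 0.00026). Nfe2l1, a factor anchored in the same membrane that drives proteasome genes, was lower in KO in the cold, a log2 change of -0.62 ± 0.09 (adjusted p = 4.2e-05), and was not called under library totals (-0.18, adjusted p = 0.18).

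In the branch downstream of PERK, genes went separate ways. Asns, an amino acid synthesis target of ATF4, was lower in KO, a log2 change of -0.70 ± 0.08 (adjusted p = 4.1e-06) in the cold and -1.01 ± 0.08 (adjusted p = 2.2e-07) at room temperature. Vldlr, a lipoprotein receptor induced by this branch, was lower in KO, a log2 change of -1.03 ± 0.16 (adjusted p = 0.00012) in the cold and -1.41 ± 0.16 (adjusted p = 1.7e-05) at room temperature. Ppp1r15a (GADD34), which reverses eIF2α phosphorylation, was higher in KO by 1.23 ± 0.18 (adjusted p = 0.00015) in the cold and 0.97 ± 0.18 (adjusted p = 0.0015) at room temperature. Atf4 rose in the cold by 0.61 ± 0.18 (adjusted p = 0.038) in KO and 1.28 ± 0.18 (adjusted p = 0.00011) in WT. Its difference of responses was not called. Among folding enzymes Pdia5, an isomerase that takes part in ATF6 activation, changed in the cold by 0.06 ± 0.21 (adjusted p = 0.88) in KO and -1.29 ± 0.20 (adjusted p = 5.4e-05) in WT and was lower in KO at room temperature, a log2 change of -1.78 ± 0.20 (adjusted p = 4.7e-06), with a difference of responses of 1.35 ± 0.29 (adjusted p = 0.0031).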

How the data were processed

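Total RNA of interscapular brown fat was sequenced from 12 pools. Per the labels' protocols each pool joined 250 ng from each of 2 mice, giving 500 ng. The authors deposited raw read counts per gene, not normalized; per the submitters' processing notes STAR and HTSeq were used with GRCm38, no versions being given, and the deposited files are named for HTSeq's reverse-strand setting. Of the 53379 IDs, 53274 were in GENCODE M21, which gave symbols, positions, exon lengths and overlaps. Library sizes do not include the 5 summary lines of HTSeq; reads without a feature were 1.64% to 2.26% and ambiguous reads 1.07% to 1.37%.

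Counts were tested with edgeR 4.0.16 (R 4.3.3): filterByExpr by group (15208 genes), TMM factors, and 1 robust quasi-likelihood fit (glmQLFit, glmQLFTest) of the 4 groups with no covariate, giving 5 contrasts adjusted by Benjamini-Hochberg at 0.05. SE is the log2 change divided by the root of its F. CPM values are TMM-scaled and counting depth limits only Sdf2l1 and Derl3. Replicate libraries differed beyond sampling noise. Alternatives were median-ratio factors, library totals alone, no filter beyond 1 count, a stricter filter (CPM of 1 in 6 libraries), DESeq2 1.42.0, only the 6 libraries compared, a replicate block, leaving out each library, and leaving out both muscle-rich libraries. Simulated data for KO against WT at room temperature held 14862 genes, of which 200 were changed. Recovered were 92% of genes raised 2-fold, 54% of those raised 1.5-fold, 50% of those set to 0.67-fold and 76% of those set to 0.5-fold. In the real comparison 6138 of 15208 genes were called, and the adjustment depends on that share. These rates therefore do not give the recovery in the real data. Promoter motifs were searched as exact letters on both strands.

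The members, role lists and other lists were chosen with earlier results of these data known. All members could be named. Per-library values are given for Hspa5, Xbp1, Ern1, Atf6, Eif2ak3 and for called members except Mbtps1, Edem2 and Dnajc3. Some have them at a single temperature only. Up to 4 genes with the smallest p of each further pathway list were eligible to be named. The deposited labels describe the pools as separate biological replicates.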

Additional observations from a re-analysis of the deposited data

Results flagged for a closer look

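The 11 members below were picked out because their cold responses differed between KO and WT by edgeR's test of the interaction. As the log2 KO response minus the WT response, Manf differed most at -1.44 ± 0.12 (adjusted p = 3.7e-06), followed by Syvn1 at -0.68 ± 0.15 (adjusted p = 0.0046), Calr at -0.58 ± 0.16 (adjusted p = 0.013), Canx at -0.50 ± 0.17 (adjusted p = 0.038), Atf6 at -0.44 ± 0.12 (adjusted p = 0.012) and Sec61a1 at -0.38 ± 0.10 (adjusted p = 0.0094). The KO response was the more positive for Xbp1 at 0.65 ± 0.21 (adjusted p = 0.039), Dnajc10 at 0.58 ± 0.14 (adjusted p = 0.0076), Pdia6 at 0.52 ± 0.11 (adjusted p = 0.0032), Edem1 at 0.45 ± 0.14 (adjusted p = 0.028) and Pdia4 at 0.44 ± 0.14 (adjusted p = 0.031). In all 11 the cold change was not called in KO and was called in WT. Of the 11, 3 (Manf, Pdia6 and Syvn1) were called in every alternative tried. Macrophage and brown adipocyte markers differed between the genotypes in the same libraries, and their part in these differences was not tested.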

How the results depend on the processing

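Of the members called, those called under every alternative were 2 of 12 for KO against WT at room temperature (Manf and P4hb) and 4 of 16 in the cold. They were 2 of 3 for cold in KO, 18 of 21 for cold in WT and 3 of 11 for the difference of responses. Scaling by library totals alone, which moves the median of all genes, put 12 members higher in KO at room temperature and 20 in the cold, with 0 lower at either. Of all genes it put 4737 higher and 1267 lower at room temperature, and 7876 higher and 1074 lower in the cold. It gave 2 members higher and 1 lower for cold in KO, with 1476 of all genes called. For the difference it gave 2 members more negative in KO, where 711 of all genes were. Between genotypes in the cold it turned the sign of 16 members, 12 of them called under one scaling or the other: Ern1 (0.32), Atf6b (0.0809), Mbtps1 (0.41), Hsp90b1 (0.43), Dnajb11 (0.38), Calr (0.0703), Pdia3 (0.17), Herpud1 (0.0243), Edem1 (0.39), Sel1l (0.24), Sec61a1 (0.32) and Ssr1 (0.43). The other 4, called under neither, were Hspa5 (0.23), Dnajc3 (0.26), Edem3 (0.26) and Wfs1 (0.17). It also turned 11 members between genotypes at room temperature, 2 between cold and room temperature in KO, 8 in WT and 10 for the difference, none called under either.

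Without the 2 muscle-rich libraries, with fewer samples, 3 members were higher in KO at room temperature and 3566 of all genes were called, and 1 member fell in the cold in KO, with 1214 of all genes called. The difference then held 1 member more positive and 3 more negative in KO, with 1903 of all genes called. For cold in KO 1 member fell under median-ratio factors, with no filter beyond 1 count and with only the 6 libraries compared, and 4 rose with no such filter and 3 with the 6 libraries; the cause was not tested. Leaving out 1 library gave 1 to 3 members rising and 1 to 3 falling in the cold in KO, with 1171 to 2537 of all genes called, and 2 to 5 members more positive and 4 to 8 more negative in KO for the difference. No pairing by replicate number was seen (correlations of -0.31 to 0.23 for shared numbers and -0.32 to 0.38 for others). With 3 libraries a group these correlations cannot exclude a pairing. With a replicate block in the 9 libraries of WT RT, WT cold and KO cold, 6 members were higher and 9 lower in KO in the cold, with 7691 of all genes called against 8200 without it, and 12 rose and 10 fell in WT in the cold, with 6671 of all genes called. The block ended the Sel1l call in KO in the cold (-0.19, adjusted p = 0.051), added Edem3 for cold in WT (0.22, adjusted p = 0.027) and changed no other member's call. Depth limits Sdf2l1 and Derl3.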
